A study of Rattus norvegicus with 64 samples.

Results

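Hyperpolarization-activated cyclic nucleotide-gated (HCN) channels and their auxiliary subunit were followed through the postnatal development of the rat entorhinal cortex. The genes are Hcn2, Hcn3, Hcn4, and Pex5l, 4 of the 17260 genes in the count files, and they were taken by their gene symbols.

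HCN channels open when the membrane hyperpolarizes and carry a mixed sodium and potassium current, usually called Ih, that sets resting potential, dampens dendritic inputs, and supports membrane resonance and rhythmic firing. Channels are tetramers of HCN subunits, which differ in how fast they open and in how strongly cyclic AMP shifts their voltage dependence. Pex5l, also called TRIP8b, is a cytoplasmic protein that binds the C-terminus of HCN subunits, alters their trafficking to the surface and along dendrites, and lowers their response to cyclic AMP. In the entorhinal cortex, Ih is prominent in the stellate cells of layer II.

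Total RNA of Long Evans rats was sequenced after depletion of ribosomal RNA, in 64 samples dissected under a microscope from brain slices kept in RNAlater. The labels name no genetic change and no drug treatment. The samples came from the medial (MEC) and the lateral (LEC) entorhinal cortex, each from layer II (LII) or from the deeper layers together (LDeep, LIII to LVI), and from animals of postnatal day (P) 2, 9, 23, or 45. Each of the 16 groups of region, layer, and age held 3 to 5 samples (5 for P2, 4 for P9, 3 for P23, and 4 for P45). The study describes the replicates as biological, and for its miRNA samples of the MEC it numbers LII and LDeep by animal. The labels of the libraries used here give replicate numbers but do not name animals, so values from a fit with the replicate number as a block are given beside each result whose call they change. The counts of a sample added up to 3894334 to 11439143 read pairs (median 7569157.5). The lowest count of a member in any sample was 20, for Pex5l, and all 4 members passed the filter on low counts, which kept 12521 genes.

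Layer labels fitted the marker genes, with both layer II markers (Reln, Calb1) higher in LII and all 4 deep-layer markers higher in LDeep. The dissected tissue holds all cell types of the cortex, so fewer cells of a type and less RNA per cell cannot be told apart. Meningeal fibroblast markers were also present, with a median LFC of 3.29 between LII and LDeep (3 of 4 higher in LII and 1 lower).

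In 5 libraries, 7.595 to 15.03% of genes lay over 1 log2 unit from the median of their group, against 0.5032 to 4.377% in the other 59. The library labelled MEC LII P2 replicate 1 went against its label, with the glutamatergic neuron genes Slc17a7 and Neurod6 at 0.6 and 0.4 CPM (counts scaled to the total of the library) where the other 4 libraries of the group held at least 251.1 and 182.8 CPM. In MEC LII P2 replicate 3 the dopamine synthesis gene Ddc reached 165.1 CPM, against at most 3.737 in the rest of its group. The collagen gene Col1a1 stood at 285.7 CPM in MEC LDeep P2 replicate 1, where no other library of the group passed 2.932. Ribosomal Rn18s reached 88.18 CPM in MEC LDeep P2 replicate 4 and 97.34 in LEC LDeep P45 replicate 4. Some of these libraries also held extreme values of the members, namely the highest Hcn2 value of P2, the highest Pex5l value of P2, the highest Hcn3 and Hcn4 values of P2, and the highest Hcn3 and Hcn4 values of P45. Results are therefore given with all samples, and without these 5 libraries where that changed a call. Some values that did not pass also moved without these libraries, and not all of them are given a second time.

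The members lie on 3 chromosomes of the Rn6 build. Hcn2 is on chromosome 7 (12851730 to 12870087, minus strand), with 8 exons and a counted exon length of 2522 bases. Hcn3 is on chromosome 2 (188458851 to 188471916, minus strand), with 8 exons and 2343 bases, and Hcn4 on chromosome 8 (63599907 to 63637324, plus strand), with 8 exons and 3944 bases. Pex5l is also on chromosome 2 (119330330 to 119537699, minus strand), with 14 exons and 1809 bases. No exon of these genes overlapped an exon of another gene on either strand.

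The first question was how the members change between young (P2/P9) and older (P23/P45) animals. All 4 were differentially expressed, in opposite directions. Hcn2 and Pex5l rose, Hcn3 and Hcn4 fell. Among all genes tested, 81.5% passed the same test (41.0% higher and 40.5% lower in older animals), so passing it was the rule in these data, and the size of the change says more. Pex5l had an LFC of 3.62 (log2 fold change), and 94 of the 12521 genes had a higher one. Hcn4, at −2.26, was followed by 273 genes with a lower LFC. The other members stood out less, as 42.69% of all genes had a larger absolute LFC than Hcn2 and 13.45% a larger one than Hcn3. The 5 libraries changed none of these calls. Where overlap between groups of samples is given below, the share of all genes with the same overlap was not counted. Such statements describe the member alone.

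**Figure D1:**
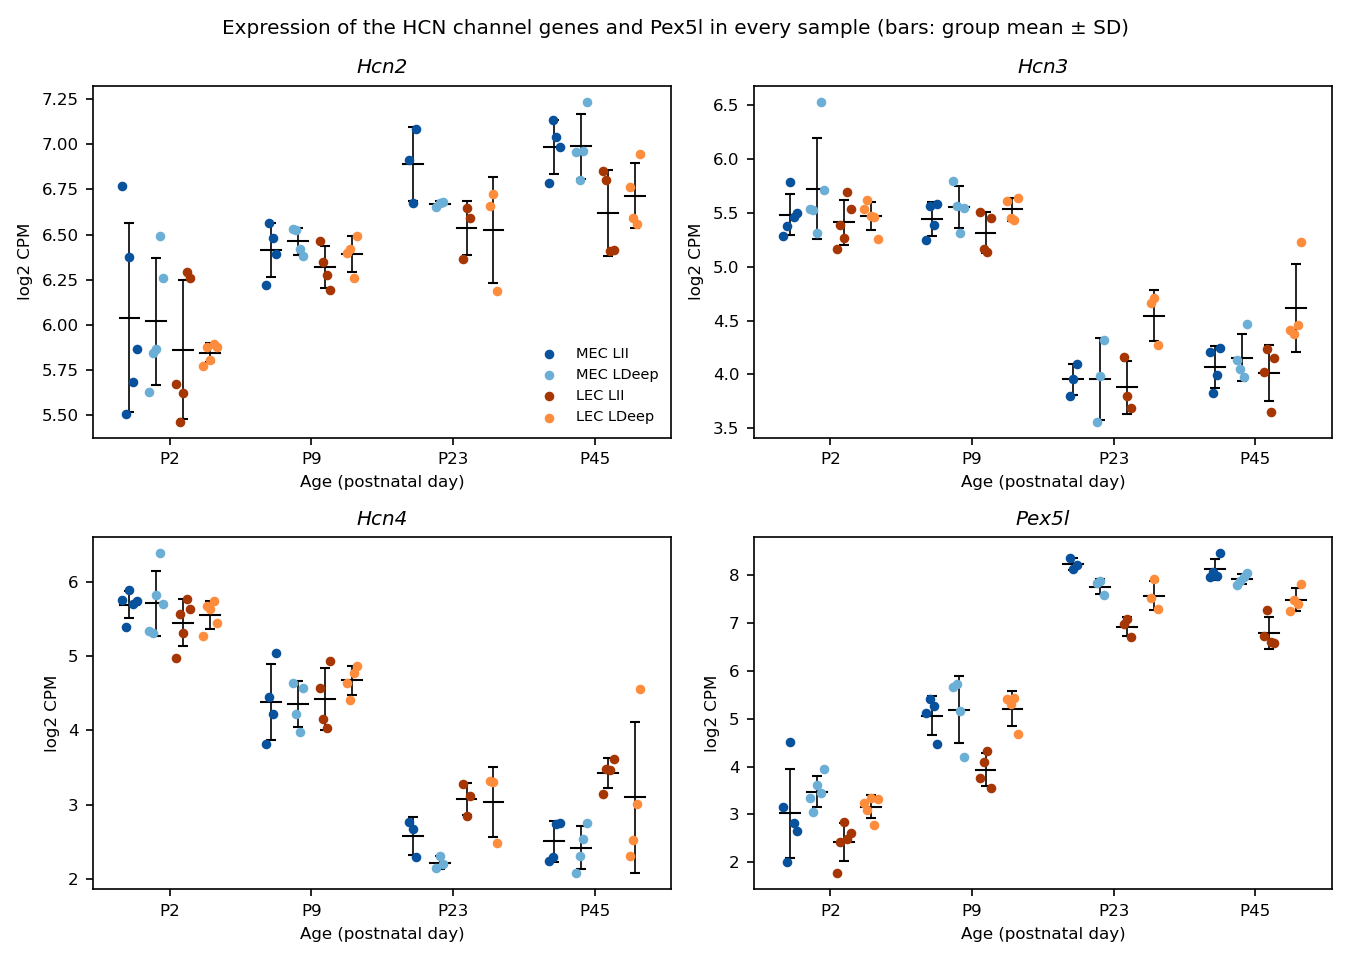
Log2 CPM (y axis) of Hcn2, Hcn3, Hcn4, and Pex5l in each of the 64 samples, by age (x axis) and by region and layer (colours), with the mean ± SD of each group as black bars. All 28 Pex5l values at P23/P45 (6.58 and above) lie over all 36 at P2/P9 (at most 5.73), and Hcn3 and Hcn4 step down between P9 and P23.

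Hcn2 encodes a subunit with a strong response to cyclic AMP that is widely expressed in the brain. Its log2 CPM ranged from 5.46 to 6.77 at P2 (median 5.87, n = 20), from 6.19 to 6.57 at P9 (median 6.41, n = 16), from 6.19 to 7.08 at P23 (median 6.67, n = 12), and from 6.41 to 7.23 at P45 (median 6.83, n = 16). Successive ages overlapped throughout, and 13 of the 28 older samples were above every younger one. The LFC from P2/P9 to P23/P45 was 0.56 ± 0.06 (SE, adjusted p = 8.8e-12), which is a 1.47-fold rise. It rose from P2 to P9 (LFC 0.42 ± 0.08, adjusted p = 1.7e-05) and from P9 to P23 (LFC 0.26 ± 0.09, adjusted p = 0.012). The P9 to P23 step no longer passed with only the LEC samples (LFC 0.19, adjusted p = 0.15) or without P23 replicate 2 (LFC 0.23, adjusted p = 0.062).

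Hcn3 encodes a subunit with little response to cyclic AMP. At P2 its log2 CPM ranged from 5.17 to 6.53 (median 5.49), at P9 from 5.14 to 5.80 (median 5.48), at P23 from 3.56 to 4.70 (median 4.04), and at P45 from 3.65 to 5.23 (median 4.18). The values of P2 and P9 overlapped, and all 12 samples of P23 were below all 16 of P9. The LFC between P9 and P2 was −0.08 ± 0.08 (adjusted p = 0.43), and between P23 and P9 it was −1.38 ± 0.10 (adjusted p = 2.3e-17), a 2.60-fold fall. Over both ages of each stage, the LFC was −1.35 ± 0.07 (adjusted p = 3.1e-25). In the older group, 27 of 28 samples were below every younger sample, and the exception was LEC LDeep P45 replicate 4, 1 of the 5 libraries above.

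Hcn4 encodes a slowly opening subunit that is strongly gated by cyclic AMP and is best known from the pacemaker cells of the heart. Its log2 CPM was 4.98 to 6.38 at P2 (median 5.66), 3.82 to 5.04 at P9 (median 4.51), 2.15 to 3.32 at P23 (median 2.72), and 2.08 to 4.56 at P45 (median 2.75). It was thus lower at each step up to P23, with 15 of 16 samples of P9 below all of P2 and 12 of 12 samples of P23 below all of P9. The LFC was −1.15 ± 0.13 from P2 to P9 (adjusted p = 2.8e-11) and −1.78 ± 0.16 from P9 to P23 (adjusted p = 2.8e-14). From P2/P9 to P23/P45 it was −2.26 ± 0.11 (adjusted p = 3e-26), a 4.79-fold fall. The count behind an Hcn4 value was as low as 25, so single older samples carry a larger counting error than those of the other subunits.

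Pex5l showed the largest change of the members. Its log2 CPM was 1.77 to 4.51 at P2 (median 3.08), 3.56 to 5.73 at P9 (median 5.15), 6.70 to 8.37 at P23 (median 7.71), and 6.58 to 8.46 at P45 (median 7.81). No sample of P23 or P45 overlapped a sample of P2 or P9, and the share of all genes that separated in this way was not counted. The LFC was 1.82 ± 0.14 from P2 to P9 (adjusted p = 4.1e-16) and 2.74 ± 0.15 from P9 to P23 (adjusted p = 6.5e-23). From P2/P9 to P23/P45 the LFC of 3.62 ± 0.10 (adjusted p = 5e-36) is a 12.3-fold rise.

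In the steps between ages, 3 of the 4 members passed from P2 to P9 (63.3% of all genes), 4 of 4 from P9 to P23 (64.6%), and 0 of 4 from P23 to P45 (3.83%). For the last step, edgeR, DESeq2, and limma voom each called 0, and 0 members had an unadjusted p under 0.05. The 95% intervals of the LFC from P23 to P45 were −0.01 to 0.36 for Hcn2, −0.07 to 0.33 for Hcn3, −0.14 to 0.52 for Hcn4, and −0.31 to 0.23 for Pex5l. Changes of the size seen at the earlier steps of Hcn3, Hcn4, and Pex5l were outside these intervals, apart from the step of Hcn3 from P2 to P9. The changes from young to older animals held in each region. All 4 passed in the MEC (75.2% of all genes) and in the LEC (73.8%). The LFC was 0.63 ± 0.09 in the MEC and 0.49 ± 0.09 in the LEC for Hcn2, −1.54 ± 0.10 and −1.17 ± 0.10 for Hcn3, −2.69 ± 0.16 and −1.83 ± 0.15 for Hcn4, and 3.72 ± 0.14 and 3.53 ± 0.15 for Pex5l.

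Markers of several cell types changed over the same ages. The summed CPM of 7 mature oligodendrocyte markers was 117.3 to 914.5 at P2/P9 and 827.7 to 16720 at P23/P45, and all 7 rose. Neuron markers (Slc17a7 and 4 others) summed to 2401 to 4857 CPM in young and 4708 to 7763 CPM in older samples, with 4 of 5 rising. The 3 immature neuron markers Dcx, Sox11, and Tubb3 fell, from 2474 to 6878 CPM at P2/P9 to 626.4 to 1008 CPM at P23/P45. Their part in the changes of the HCN genes and Pex5l was not tested.

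Counts divided by exon length (RPKM, the CPM per kilobase of exon) allow the subunits to be compared with each other, here as shares of the summed RPKM of Hcn2, Hcn3, and Hcn4. At P2, Hcn2 made up 43.3 ± 4.9% of this sum (SD, n = 20), Hcn3 34.9 ± 4.0%, and Hcn4 21.9 ± 2.4%. At P9 the shares were 57.8 ± 3.2%, 32.4 ± 1.6%, and 9.74 ± 2.1% (n = 16). At P23 they were 81.5 ± 4.6%, 15.0 ± 3.9%, and 3.47 ± 1.2% (n = 12). At P45, Hcn2 made up 81.8 ± 4.8% (n = 16), Hcn3 14.5 ± 3.4%, and Hcn4 3.65 ± 2.0%. The share of Hcn2 therefore grew while those of Hcn3 and Hcn4 shrank, and the summed RPKM moved much less, from 57.5 ± 12.4 at P2 to 55.6 ± 8.2 at P45.

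The order of the 3 subunits by RPKM was almost the same at every age. Hcn2 came first in 17 of 20 samples of P2, and Hcn3 in the other 3, while Hcn4 was last in 20 of 20. All 16 samples of P9, 12 of P23, and 16 of P45 had the order Hcn2, Hcn3, Hcn4. Without division by length, the share of Hcn4 at P2 was 31.1% and that of Hcn3 29.5%, so the order of these 2 at P2 depends on the length correction.

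Pex5l changed relative to these subunits as well. At P2 its RPKM was 0.0829 ± 0.0341 of their summed RPKM (n = 20), at P9 0.301 ± 0.121 (n = 16), at P23 2.31 ± 0.64 (n = 12), and at P45 2.01 ± 0.58 (n = 16). The transcript of the auxiliary subunit was thus below the sum of the 3 subunits in every sample of P2 and P9 (ratio at most 0.479) and above it in every sample of P23 and P45 (at least 1.07). In MEC LII at P23/P45 the ratio was 2.82 ± 0.42 (n = 7), in MEC LDeep 2.38 ± 0.29, in LEC LDeep 1.99 ± 0.29, and in LEC LII 1.37 ± 0.22. These ratios are descriptions of RNA with no test, and they say nothing of protein.

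**Figure D2:**
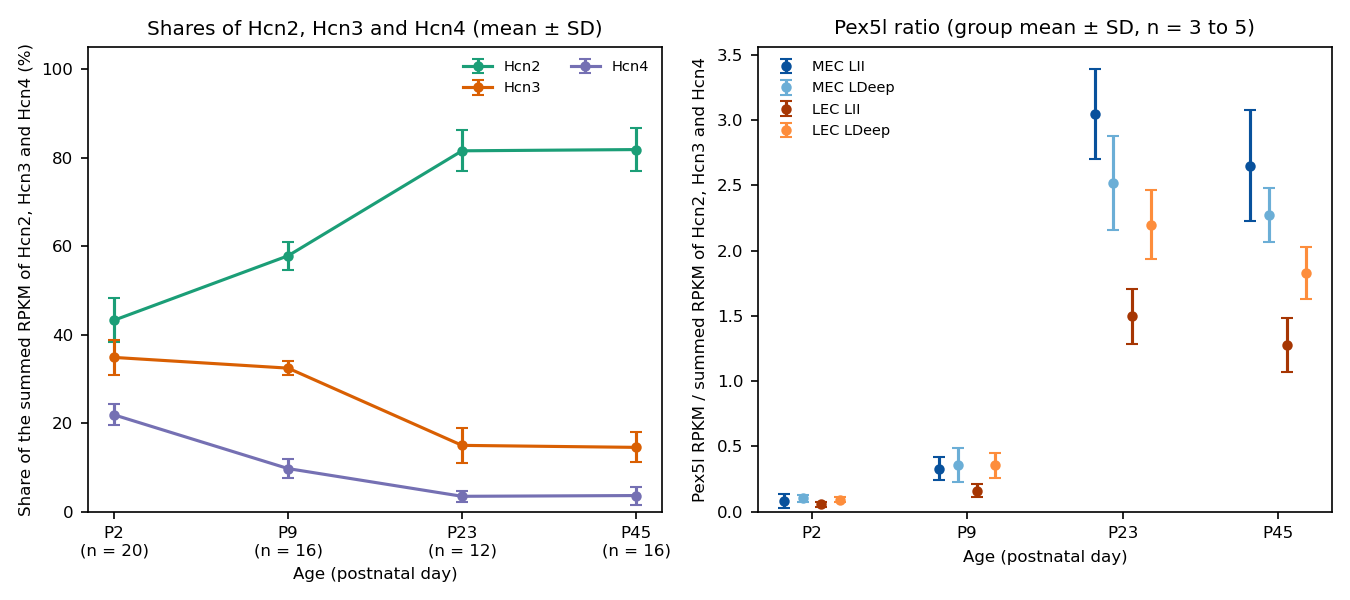
Left, share of Hcn2, Hcn3, and Hcn4 in their summed RPKM (y axis, percent) by age (x axis), as mean ± SD over all samples of that age. Right, ratio of Pex5l RPKM to the summed RPKM of the 3 subunits by age, as group mean ± SD (3 to 5 samples). Hcn4 falls from 21.9% to 3.65% between P2 and P45, and LEC LII (dark brown) has the lowest ratio of Pex5l at each age.

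The next comparison was between layers. Over all ages and both regions, 2 of the 4 members differed between LII and LDeep (54.0% of all genes did). Both were lower in LII. Pex5l had an LFC of −0.38 ± 0.10 (adjusted p = 0.0012) and Hcn3 of −0.26 ± 0.07 (adjusted p = 0.00078). The LFC of Hcn2 was 0.02 (95% interval −0.10 to 0.14, adjusted p = 0.81) and that of Hcn4 0.04 (−0.16 to 0.25, adjusted p = 0.76). A change of the layer difference from young to older animals passed for 0 of 4 members (8.79% of all genes), by edgeR and by DESeq2, and for Pex5l by limma voom (0.65 ± 0.19, adjusted p = 0.024). In edgeR, Pex5l (0.43 ± 0.20, adjusted p = 0.20) was the 1 member with an unadjusted p under 0.05, and without the 5 libraries it passed (0.62 ± 0.17, adjusted p = 0.0096). With the replicate block it passed too (0.46 ± 0.15, adjusted p = 0.040).

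The layer difference of Pex5l was not the same in the regions. The difference between the LFC in the MEC and that in the LEC was 0.92 ± 0.20 (adjusted p = 0.0062), where 1.24% of all genes passed this test, and Pex5l was the 1 member that did. In the LEC, Pex5l was lower in LII than in LDeep, with an LFC of −0.84 ± 0.15 (adjusted p = 4.6e-06, 38.6% of all genes passed). The LII sample was below the LDeep sample of the same replicate number and age in 16 of 16. In the MEC the LFC was 0.08 ± 0.14 (adjusted p = 0.66, 40.8% of all genes), and −0.15 ± 0.12 without the 5 libraries (adjusted p = 0.33). Without the 5 libraries the difference between regions was 0.67 ± 0.17 (adjusted p = 0.020).

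In LEC LII at P9 the log2 CPM of Pex5l was 3.77, 4.10, 4.32, and 3.56, and in LEC LDeep it was 5.41, 5.31, 5.45, and 4.68. These groups did not overlap. At P2 it was 1.77, 2.43, 2.85, 2.49, and 2.60 in LEC LII and 3.24, 3.10, 3.35, 2.77, and 3.33 in LEC LDeep, with an overlap of 1 sample from each layer. At P2/P9 the LFC between the layers of the LEC was −1.002 ± 0.21 (adjusted p = 0.00021, 25.7% of all genes).

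At P23/P45 Pex5l rose by its median over the 4 groups in the order given here, though not every step between neighbours passed a test. In LEC LII it ranged from 6.58 to 7.27 (median 6.72, n = 7), in LEC LDeep from 7.25 to 7.92 (median 7.48), in MEC LDeep from 7.58 to 8.04 (median 7.87), and in MEC LII from 7.97 to 8.46 (median 8.12). Neighbouring groups in this order overlapped, and all 7 samples of LEC LII were below all 14 of the MEC. Between MEC LDeep and LEC LDeep the LFC was 0.29 ± 0.20 (adjusted p = 0.57). The LFC between layers was −0.68 ± 0.20 in the LEC (adjusted p = 0.0085, 25.4% of all genes) and 0.34 ± 0.20 in the MEC (adjusted p = 0.20, 28.7%). By limma voom the value in the MEC passed (0.43 ± 0.16, adjusted p = 0.035). In the MEC, the LII sample was higher in 7 of 7 replicate numbers at these ages, by 0.02 to 0.64 log2 units. The call in the LEC was lost without P23 replicate 2 (LFC −0.59, adjusted p = 0.070).

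The layer difference of Pex5l in the young MEC depended on 1 library. At P2, log2 CPM in MEC LII was 3.16, 2.00, 4.51, 2.81, and 2.66, and in MEC LDeep it was 3.34, 3.06, 3.62, 3.44, and 3.94. The value of 4.51 belongs to replicate 3, which stood apart, and the other 4 values of LII were below 4 of the 5 of LDeep. With all samples, the LFC at P2/P9 was −0.18 ± 0.19 (adjusted p = 0.51, 26.5% of all genes). Without replicate 3 of MEC LII it was −0.47 ± 0.17 (adjusted p = 0.031), and without all 5 libraries −0.60 ± 0.19 (adjusted p = 0.013). The change of the layer difference between young and older MEC was 0.53 ± 0.28 with all samples (adjusted p = 0.32, 5.18% of all genes) and 0.90 ± 0.25 without the 5 libraries (adjusted p = 0.013).

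For Hcn3 the layer difference over all ages was −0.39 ± 0.09 in the LEC (adjusted p = 0.00069) and −0.13 ± 0.09 in the MEC (adjusted p = 0.26). Within a region and stage it passed in the LEC of older animals. At P23/P45 its log2 CPM ranged from 3.65 to 4.24 in LEC LII (median 4.02, n = 7) and from 4.27 to 5.23 in LEC LDeep (median 4.46), and these groups did not overlap. The LFC was −0.65 ± 0.15 (adjusted p = 0.00055), and −0.56 ± 0.12 without the 5 libraries (adjusted p = 0.00011). In the MEC at these ages it was −0.07 ± 0.14 (adjusted p = 0.79), with values from 3.80 to 4.25 in LII and from 3.56 to 4.47 in LDeep. In the young LEC the LFC was −0.13 ± 0.12 (adjusted p = 0.44). The difference of the layer effect between regions, 0.26 ± 0.13 over all ages, did not pass (adjusted p = 0.44). With all samples, the change of the layer effect with age within the LEC did not pass either (−0.51 ± 0.19, adjusted p = 0.17, 2.22% of all genes). That change passed with LEC samples only (−0.57 ± 0.17, adjusted p = 0.048) and without MEC LDeep P2 replicate 4 (−0.56 ± 0.16, adjusted p = 0.041). It did not pass without all 5 libraries (−0.45 ± 0.15, adjusted p = 0.064). The data thus do not show that the effect is limited to this region, and the call on its change with age depended on the samples fitted.

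Layer tests at single ages passed for 2 of 16 pairs of member and age. They were Pex5l at P9 (LFC −0.73 ± 0.20, adjusted p = 0.0032, 32.9% of all genes) and Hcn3 at P45 (−0.36 ± 0.13, adjusted p = 0.039, 26.4%). The shares of all genes passing at P2 and P23 were 19.2% and 25.9%. The call of Hcn3 at P45 was close to the threshold. It was lost without LEC LDeep P45 replicate 4 alone (−0.28 ± 0.13, adjusted p = 0.083), with at least 10 counts in every sample (−0.31 ± 0.13, adjusted p = 0.092), and without any 1 of 7 of the 16 replicate numbers (adjusted p from 0.050 to 0.11), and it was kept without all 5 libraries (−0.28 ± 0.11, adjusted p = 0.031). That of Pex5l at P9 was lost without P9 replicate 1 (−0.60 ± 0.23, adjusted p = 0.056). With MEC samples only, both calls were lost, with −0.19 ± 0.32 for Pex5l at P9 (adjusted p = 0.74) and −0.10 ± 0.20 for Hcn3 at P45 (adjusted p = 0.84). With LEC samples only, both were kept. Pex5l at P2 (−0.46, adjusted p = 0.12) passed with the replicate block (−0.53 ± 0.16, adjusted p = 0.016) and without the 5 libraries (−0.86 ± 0.21, adjusted p = 0.0016). Hcn3 also passed without them at P23 (−0.39 ± 0.12, adjusted p = 0.0080).

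**Figure D3:**
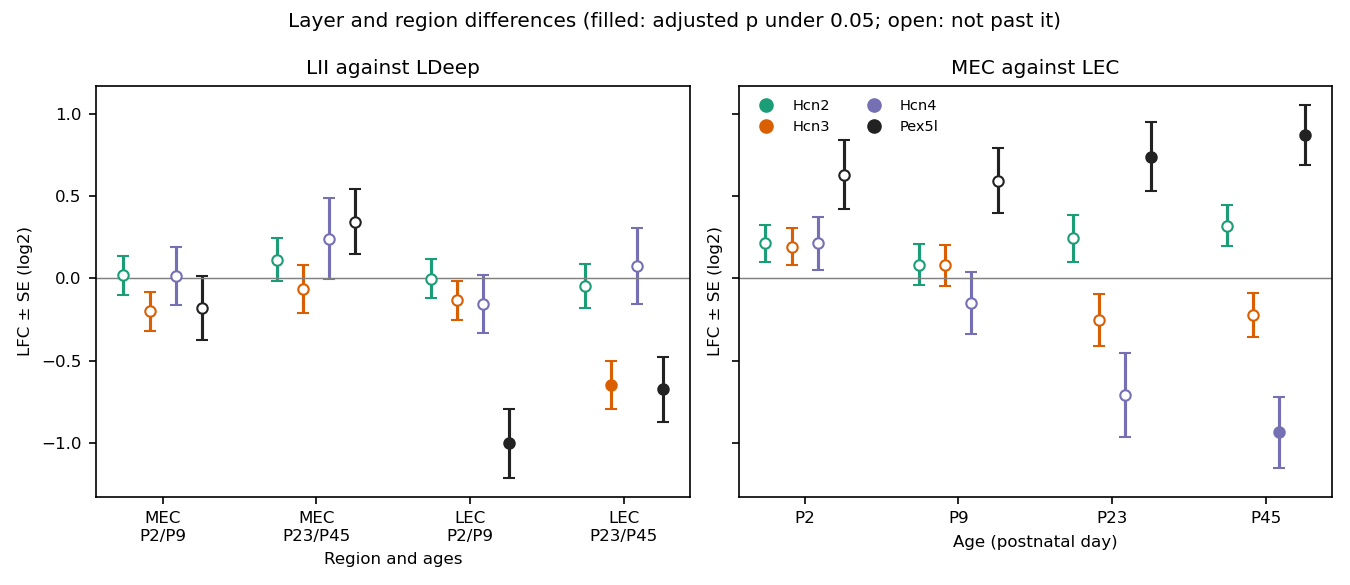
LFC ± SE (y axis, log2) of the members between LII and LDeep within each region at young and older ages (left) and between MEC and LEC at each age (right), with filled points for adjusted p under 0.05. Pex5l lies at −1.002 and −0.68 in the LEC and between −0.18 and 0.34 in the MEC, and Hcn4 runs from 0.21 at P2 to −0.94 at P45 between regions.

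Regions were compared next. Over all ages and layers, 3 of the 4 members differed between MEC and LEC, where 15.3% of all genes did (8.81% higher and 6.48% lower in the MEC). Pex5l and Hcn2 were higher in the MEC and Hcn4 was lower. The LFC of Pex5l was 0.71 ± 0.10 (adjusted p = 2.8e-07), with 159 of 12521 genes having a higher one. For Hcn2 it was 0.21 ± 0.06 (adjusted p = 0.012), and for Hcn4 −0.40 ± 0.10 (adjusted p = 0.0046). The LFC of Hcn3 was −0.05 (95% interval −0.18 to 0.08, adjusted p = 0.69).

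Hcn4 differed between regions in older animals. At P23/P45 its log2 CPM ranged from 2.08 to 2.77 in the MEC (median 2.31, n = 14) and from 2.31 to 4.56 in the LEC (median 3.21, n = 14). The mean of the 2 layers was lower in the MEC in 7 of 7 replicate numbers. At P2/P9 the ranges were 3.82 to 6.38 in the MEC (median 5.32, n = 18) and 4.03 to 5.77 in the LEC (median 5.13), and they overlapped. The LFC was −0.82 ± 0.17 in older animals (adjusted p = 0.00027, 12.8% of all genes) and 0.03 ± 0.12 in young ones (adjusted p = 0.93).

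The change of this region difference with age was itself tested, and passed for Hcn4 but no other member (−0.85 ± 0.21, adjusted p = 0.0083, 4.34% of all genes). Without the 5 libraries it was −0.63 ± 0.17 (adjusted p = 0.012). It no longer passed without P23 replicate 1 (−0.81 ± 0.24, adjusted p = 0.050). The same test gave −0.37 ± 0.13 for Hcn3 (adjusted p = 0.10), 0.13 ± 0.13 for Hcn2 (adjusted p = 0.65), and 0.19 ± 0.20 for Pex5l (adjusted p = 0.69). Without the 5 libraries it gave −0.24 ± 0.10 for Hcn3 (adjusted p = 0.19), 0.28 ± 0.10 for Hcn2 (adjusted p = 0.081), and 0.41 ± 0.17 for Pex5l (adjusted p = 0.17).

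Within LII of older animals, Hcn4 was 2.77, 2.67, and 2.29 at P23 and 2.24, 2.29, 2.74, and 2.76 at P45 in the MEC. In the LEC it was 3.28, 2.85, and 3.11 at P23 and 3.15, 3.49, 3.46, and 3.62 at P45. All 7 samples of LEC LII were above all 14 samples of the MEC, with an LFC of −0.74 ± 0.24 between MEC LII and LEC LII (adjusted p = 0.039, 8.18% of all genes). That call was lost in 5 of the alternatives that leave out 1 replicate number, in each of the 3 of P23 and in 2 of P45, where the LFC stayed between −0.66 and −0.83.

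In LDeep, Hcn4 was 2.15, 2.32, and 2.20 at P23 and 2.08, 2.31, 2.54, and 2.75 at P45 in the MEC. LEC LDeep held 3.32, 3.30, and 2.49 at P23 and 2.31, 2.52, 3.01, and 4.56 at P45. These groups overlapped, and the value of 4.56 is that of LEC LDeep P45 replicate 4. The LFC was −0.91 ± 0.24 (adjusted p = 0.014, 4.12% of all genes), and without this library −0.56 ± 0.20 (adjusted p = 0.12). It also missed the threshold without all 5 libraries (−0.57 ± 0.19, adjusted p = 0.075), by limma voom (−0.69 ± 0.27, adjusted p = 0.17), and without P23 replicate 1 (−0.82), P23 replicate 2 (−0.87), or P45 replicate 4 (−0.63).

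Pex5l was higher in the MEC at young and at older ages. The LFC was 0.61 ± 0.14 at P2/P9 (adjusted p = 0.0029, 7.56% of all genes) and 0.80 ± 0.14 at P23/P45 (adjusted p = 2.3e-05). In LII of older animals it was 1.31 ± 0.20 (adjusted p = 3.6e-06), which is 2.49-fold, and in LDeep 0.29 ± 0.20 (adjusted p = 0.57). At P2 the LFC of 0.63 ± 0.21 (adjusted p = 0.094) fell to 0.25 ± 0.21 without the 5 libraries (adjusted p = 0.69). At P2/P9 it was then 0.42 ± 0.13 (adjusted p = 0.036). Over all ages, the mean of the 2 layers was higher in the MEC in 15 of 16 replicate numbers.

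Region tests at single ages passed for 3 of 16 pairs of member and age, namely Pex5l at P23 (LFC 0.74 ± 0.21, adjusted p = 0.034, 3.57% of all genes) and P45 (0.87 ± 0.18, adjusted p = 0.00074, 9.06%) and Hcn4 at P45 (−0.94 ± 0.22, adjusted p = 0.0022). The shares of all genes at P2 and P9 were 2.66% and 3.87%. Leaving out any of the 3 replicate numbers of P23 ended the call of Pex5l at that age (LFC 0.67 to 0.88). Leaving out P45 replicate 4 ended that of Hcn4 (−0.67 ± 0.21, adjusted p = 0.051). Without the 5 libraries Hcn4 passed at P23 (−0.71 ± 0.20, adjusted p = 0.018) and at P45 (−0.60 ± 0.18, adjusted p = 0.017), Pex5l at P9 (0.59 ± 0.16, adjusted p = 0.011), and Hcn2 at P45 (0.36 ± 0.09, adjusted p = 0.0057). With the replicate block Pex5l passed at P2 (0.56 ± 0.16, adjusted p = 0.040) and P9 (0.57 ± 0.15, adjusted p = 0.012), and Hcn4 at P23 (−0.70 ± 0.20, adjusted p = 0.031). DESeq2 called Pex5l at P2 (0.61 ± 0.19, adjusted p = 0.045) and P9 (0.61 ± 0.20, adjusted p = 0.049) as well.

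Hcn3 and Hcn2 showed smaller region differences in older animals. Hcn3 was lower in the MEC than in the LEC in LDeep (−0.53 ± 0.14, adjusted p = 0.018) and had an LFC of 0.05 ± 0.15 in LII (adjusted p = 0.91). Without LEC LDeep P45 replicate 4 the value in LDeep was −0.41 ± 0.14 (adjusted p = 0.091), and it also missed the threshold without P23 replicate 1 (−0.41) or replicate 2 (−0.49). It was kept without all 5 libraries (−0.41 ± 0.11, adjusted p = 0.017). Hcn2 had an LFC of 0.28 ± 0.09 between MEC and LEC at P23/P45 (adjusted p = 0.036), with ranges of 6.65 to 7.23 in the MEC and 6.19 to 6.95 in the LEC that overlapped, and the call ended when 4 of the 7 replicate numbers of these ages were left out in turn, with adjusted p from 0.079 to 0.19. In LII of older animals the LFC of Hcn2 was 0.36 ± 0.13 (adjusted p = 0.087), and it passed without the 5 libraries (0.36 ± 0.10, adjusted p = 0.0074).

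The shares of the 3 subunits in their summed RPKM were compared between the groups of older animals as a description. In MEC LII at P23/P45, Hcn2 made up 85.4 ± 2.1% (n = 7), Hcn3 12.04 ± 1.9%, and Hcn4 2.51 ± 0.54%. In MEC LDeep the shares were close to these, at 84.6 ± 1.9%, 13.2 ± 1.9%, and 2.25 ± 0.24%. In LEC LII the shares were 80.8 ± 3.2%, 14.0 ± 2.4%, and 5.22 ± 1.2%, and in LEC LDeep they were 76.0 ± 3.7%, 19.7 ± 1.9%, and 4.31 ± 2.0%. All 7 Hcn4 shares of LEC LII (3.74 to 6.87%) were above all 7 of MEC LII (1.87 to 3.20%). The summed RPKM was 57.3 ± 5.4 in MEC LII and 47.2 ± 5.5 in LEC LII, and the samples overlapped (48.5 to 62.7 and 41.5 to 54.8).

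Cell type markers differed between the same groups. At P23/P45 the summed CPM of the 7 mature oligodendrocyte markers was 827.7 to 1930 in LEC LII, 2469 to 7217 in LEC LDeep, 3619 to 5168 in MEC LII, and 6933 to 16720 in MEC LDeep. Neuron markers summed to 4708 to 7048 CPM in LEC LII, 6367 to 7763 in LEC LDeep, 5382 to 7008 in MEC LII, and 6542 to 7436 in MEC LDeep. Inhibitory neuron markers were at 492.5 to 610.9 CPM in LEC LII and between 595.5 and 785.1 CPM in the other 3 groups. LEC LII, the group with the lowest Pex5l, also had the lowest median of all 3 lists, and the part of these cells in the differences was not tested. Meningeal fibroblast markers were 464.2 to 1097 CPM in LEC LII and 177.6 to 821.8 in MEC LII, against 67.57 to 237.9 in LDeep of both regions, and their part was not tested either.

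Other genes of the pathway were taken from 2 lists. The first holds 13 genes for proteins known to bind or regulate HCN channels, or related to such a protein, of which 11 were tested. Lrmp was not found under this symbol, and Cav3 was below the filter. Between young and older animals 3 were higher, 6 lower, and 2 did not pass, to be read against the 81.5% of all genes that passed (41.0% higher and 40.5% lower). The median LFC was −0.10 (0.01 over all genes). The largest rises were those of Mrvi1, a substrate of cyclic GMP-dependent kinase (LFC 2.21 ± 0.18, adjusted p = 2.1e-16), and Grasp, the scaffold protein tamalin (2.14 ± 0.08, adjusted p = 1e-30). The largest falls were those of Flna, the actin crosslinker filamin A (−1.46 ± 0.08, adjusted p = 4.6e-24), and Kcne2, a small accessory subunit of potassium and HCN channels (−0.80 ± 0.12, adjusted p = 1.3e-08). Pex5, the peroxisomal import receptor from which Pex5l takes its name, had an LFC of −0.31 ± 0.07 (adjusted p = 6e-05), far from the 3.62 of Pex5l.

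Between layers 2 of the 11 were higher in LII, 7 lower, and 2 did not pass, where 54.0% of all genes passed (median −0.15, against −0.05 over all genes). The higher ones were Mrvi1 (2.04 ± 0.18, adjusted p = 6.3e-14) and Flna (0.85 ± 0.08, adjusted p = 4.2e-14). In the same contrast 3 of 4 meningeal fibroblast markers were higher in LII and 1 was lower. All 3 endothelial markers were higher in LII, and the part of these cells was not tested. Magi2, a synaptic scaffold, had the lowest LFC (−0.35 ± 0.04, adjusted p = 2.8e-12), followed by Kctd3, a partner of Hcn3 (−0.20 ± 0.03, adjusted p = 3.5e-07). Between regions 1 was higher in the MEC, 0 were lower, and 10 did not pass (15.3% of all genes passed). It was Magi2 (0.14 ± 0.04, adjusted p = 0.0037), named after its value was seen.

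The second list holds 31 enzymes that make or degrade the cyclic nucleotides which bind HCN channels, of which 30 were tested (Adcy9 was not found under this symbol). Between young and older animals 18 were higher, 7 lower, and 5 did not pass, again beside 81.5% of all genes (41.0% higher and 40.5% lower). The median LFC was 0.45 against 0.01 over all genes. Among the phosphodiesterases, Pde4c (1.98 ± 0.20, adjusted p = 3.5e-13) and Pde8b (1.78 ± 0.07, adjusted p = 1.5e-30) rose most, and Pde7a had one of the 2 largest falls (−1.39 ± 0.06, adjusted p = 6.6e-29). The other was that of the adenylyl cyclase Adcy7 (−2.07 ± 0.07, adjusted p = 1.1e-31).

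Between layers 11 of the 30 enzymes were higher in LII, 8 lower, and 11 did not pass (54.0% of all genes passed, median LFC −0.02). Adcy4 (1.05 ± 0.13, adjusted p = 6.2e-10) and Pde7b (0.76 ± 0.07, adjusted p = 3.3e-14) had the highest LFC, and Pde1a (−1.09 ± 0.09, adjusted p = 1.4e-15) and Pde9a (−0.47 ± 0.06, adjusted p = 7.8e-10) the lowest. Between regions 9 were higher in the MEC, 4 lower, and 17 did not pass, where 15.3% of all genes passed (median 0.09, 0.01 over all genes). In the test of the layer difference between regions, which Pex5l and 1.24% of all genes passed, 1 of the 30 enzymes passed, Pde11a (1.02 ± 0.22, adjusted p = 0.0063), and 0 of the 11 partners. Pde11a was named after its value was seen.

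**Figure D4:**
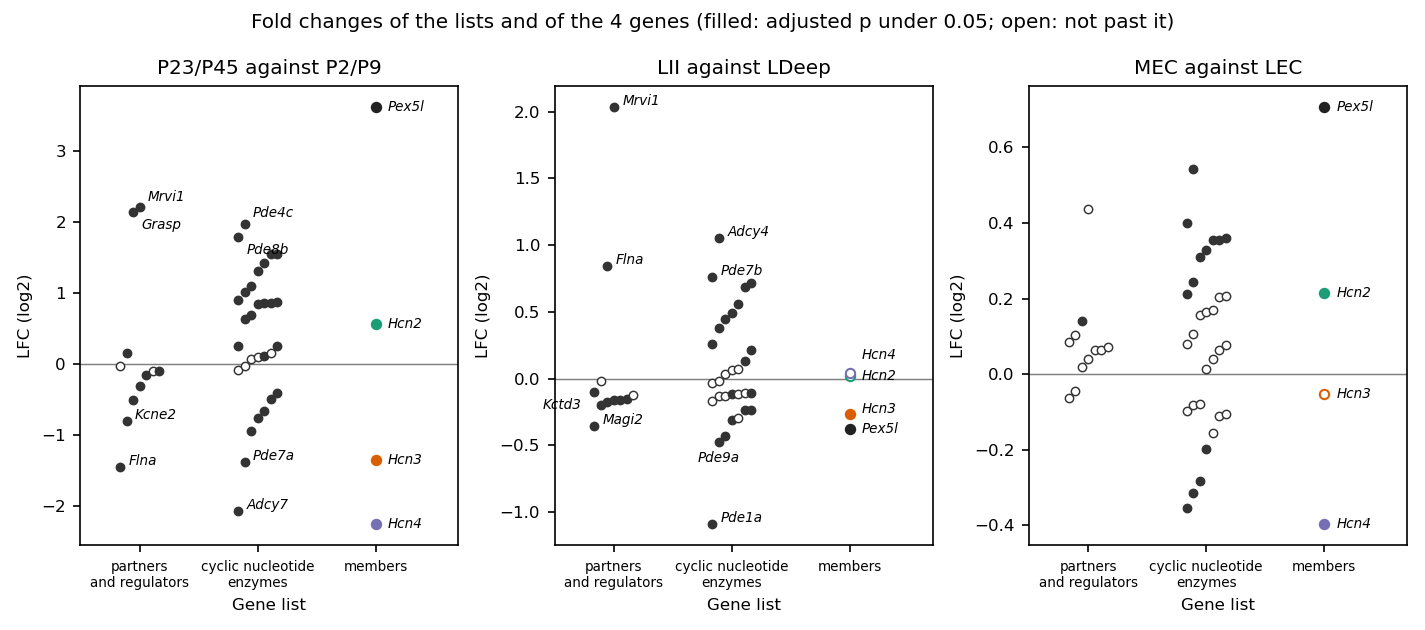
LFC (y axis, log2) of the tested genes of both lists and of the 4 members in the contrasts between ages, layers, and regions (panels), with filled points for adjusted p under 0.05 and names beside the 4 members and, for ages and layers, beside the 2 list genes that moved most in each direction. Pex5l at 3.62 lies above every gene of either list in the age contrast, and Hcn4 at −2.26 lies below every one.

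The genes whose log2 CPM was most like that of a member were sought among 11897 genes with a mean of at least 1 CPM over the 64 samples. The samples share their ages and libraries, so the correlations are descriptions. Most like Pex5l were Cntnap1, Dusp3, and Tppp (Pearson r 0.976, 0.974, and 0.972), most like Hcn4 were Lppr3, Dclk2, and Wdr6 (0.975, 0.974, and 0.969), most like Hcn3 were Sdc3, Dpysl5, and Dpysl3 (0.954, 0.947, and 0.945), and most like Hcn2 were Rasd2, Agpat3, and Ggt7 (0.908, 0.901, and 0.894). Differences between ages enter these values, as the correlation of Pex5l with Hcn4 (−0.916) and of Hcn3 with Hcn4 (0.887) shows.

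After the mean of each age was subtracted, other genes came first. Nell1, Rap1gap, and Iqsec3 were most like Pex5l (r 0.804, 0.795, and 0.773), and Dclk2, Pcdh19, and Wdr6 most like Hcn4 (0.809, 0.801, and 0.793), so Dclk2 and Wdr6 were among the 3 by both measures. Sema4f, Ctnnd2, and Carm1 were most like Hcn3 (0.801, 0.8002, and 0.777), and Slc32a1, the vesicular transporter of inhibitory neurons, Clptm1, and Ggt7 most like Hcn2 (0.753, 0.739, and 0.736). Among the members, Hcn3 with Hcn4 (0.516) and Hcn2 with Pex5l (0.513) had the highest values, and Pex5l with Hcn4 was at −0.157. The 5 libraries that stand apart are included in these correlations, and values without them are not given. MEC LII P2 replicate 1, which held almost no Slc17a7, had the highest Hcn2 value of P2 (6.77 log2 CPM). Inhibitory neuron markers, Slc32a1 among them, summed to as much as 1350 CPM in MEC LII at P2/P9, against a median of 424.1. The part of single libraries in these correlations was not tested.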

How the data were processed

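Sequencing and counting were done by the authors. Per the labels and the study's methods, reads were demultiplexed with bcl2fastq 1.8.4, trimmed with Trimmomatic 0.33, mapped to Rn6 with STAR 2.4.0, and counted strand-specifically on RefSeq exons with featureCounts (Subread 1.4.6-p1), where a pair overlapping more than 1 gene counts for all of them. The deposited values are these raw counts per gene, without normalization. The labels name no batch and no animal. The study numbers its miRNA samples of the MEC by animal, and whether the replicate numbers used here do the same is not given in the sources used here.

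From the counts, edgeR 4.0.16 in R 4.3.3 was run with TMM library sizes, its filter on low counts, 1 mean for each of 16 groups over 64 samples, and the quasi-likelihood test. P-values were adjusted by Benjamini-Hochberg over all 12521 genes (threshold 0.05). The SE was taken as the absolute LFC over the root of its F statistic, and 95% intervals are 1.96 SE to each side. Log2 CPM used a prior count of 2, so low values are drawn together. RPKM used the exon lengths in the files, and shares are of the summed RPKM of Hcn2, Hcn3, and Hcn4 alone. Some planned results are not reported here. A library stands apart where over 5% of genes lie over 1 log2 unit from the group median.

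The fit was repeated with DESeq2 1.42.0, with limma 3.58.1 (voom, TMM and quantile normalization), and with RLE size factors, no filter, at least 10 counts in every sample, 1 region only, the replicate block, and each replicate number left out. For contrasts between ages over both regions, the replicate block stands for a test on counts summed over the samples of 1 replicate number. The contrasts between ages within 1 region were not fitted with the block. Leaving out the 5 libraries, together and 1 by 1, and the contrasts within a region, a layer, or pooled ages were added after the data were seen. The members and lists were chosen with earlier results of these data known. Beside the members, list genes were named as the 2 with the largest LFC per direction among those that passed, and similar genes as the 3 with the highest r. Scripts were tested on simulated counts. No sequence is shown, since no measurement here bears on one.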

Additional observations from a re-analysis of the deposited data

Results flagged for a closer look

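In LEC LDeep at P45 the Hcn3 value of replicate 4, 5.233 log2 CPM, lay apart from the other 3 (4.373 to 4.458), the 1 such case among 48 combinations of member and group tested, where chance gives about 1 in 20. This library is among the 5 that stand apart.

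Of 20 tests of a difference between 2 effects (5 for each of the 4 members), 2 passed. Over all genes, 1.24 to 8.79% passed these 5 tests, with 4.34% in the first case below and 1.24% in the second. The region difference of Hcn4 (MEC against LEC) changed by −0.8521 log2 units from P2/P9 to P23/P45, with MEC below LEC in 7 of 7 replicate numbers at the older ages and in 4 of 9 at the younger. The layer difference of Pex5l differed between MEC and LEC by 0.9204 log2 units, with LII below LDeep in 16 of 16 replicate numbers in the LEC and in 6 of 16 in the MEC.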

How the results depend on the processing

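The 4 changes from young to older animals kept their direction and their side of the threshold under all 30 alternatives, and the layer difference of Pex5l between regions under the 28 that allow it (LFC 0.67 to 0.98). Over the LFC of all members and contrasts, 3427 alternative values kept call and direction, 53 gained a call, 39 lost one, and 25 changed sign. The cause was not tested. Layer contrasts and tests of a difference at single ages rest on 3 to 5 samples a group, and Hcn4 on as few as 25 counts.

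The values that changed sign were mostly near 0. With limma voom, Hcn4 between layers was −0.0755 over all samples, −0.12 at P23, −0.0628 in the MEC, and −0.14 in the MEC at P23/P45, and the layer difference in the MEC changed with age by −0.11 for Hcn3 and −0.16 for Hcn4. With MEC samples only, Pex5l between layers was 0.0807 over all ages, 0.47 at P23, and 0.22 at P45, and the layer difference of Hcn3 changed with age by 0.14. With LEC samples only, Hcn2 between layers was −0.0374 at P23 and changed with age by −0.11. Without the 5 libraries, Hcn2 between layers was −0.0857 at P2, −0.0382 in the MEC, and −0.15 in the MEC at P2/P9, Hcn2 between regions was −0.0290 at P2, Pex5l between layers in the MEC was −0.15, and Hcn4 between layers in the LEC was 0.12.

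Leaving out 1 replicate number or 1 library at a time gave −0.0543 to 0.32 for Hcn4 between P45 and P23, −0.0626 to 0.16 and −0.0648 to 0.22 for Hcn2 between layers at P2 and P23, −0.13 to 0.13 for Hcn2 between layers in the MEC at P2/P9, −0.0832 to 0.14 for Pex5l between layers in the MEC, and −0.11 to 0.12 for Hcn4 between layers in the LEC.

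Counts of members called also moved, as did the counts of all genes called, which are given in brackets where they are at hand. Between LII and LDeep the count of members was 2 (6761 of 12521 genes), and 0 with MEC samples only (4676 of 12341 genes). For the layer difference at P23/P45 against P2/P9 it was 0 (1101 of 12521 genes), and 0 to 1 leaving out 1 replicate. It was 1 with limma voom (Pex5l, 1101 of 12521 genes), with LEC samples only (Hcn3, 490 of 12255), and without the 5 libraries (Pex5l, 1875 of 12472). For layers at each age it was 2 (19.2 to 32.9% of all genes). It was 4 with limma voom, 1 with at least 10 counts in every sample, 0 with MEC samples only, 6 with LEC samples only, and 4 without the 5 libraries (1 to 4 leaving out 1 replicate). At single ages the share of all genes under the alternatives, the replicate block included, is not at hand. The counts of members at single ages, for layers and for regions, therefore cannot be read as a result about the members. For regions at each age the count of members was 3 (2.66 to 9.06% of all genes), and 5 with DESeq2 and 6 without the 5 libraries. For the region difference at P23/P45 against P2/P9 it was 1 (543 of 12521 genes), and 0 to 2 leaving out 1 replicate. Over all genes that test also moved, for example to 472 of 12498 without P2 replicate 4 and 666 of 12496 without P2 replicate 1. Without division by exon length, the share of Hcn3 was 29.5% at P2 and 29.2% at P9, and that of Hcn4 31.1% at P2, 14.7% at P9, and 5.38% at P23.

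Whether the replicate numbers of these libraries mark animals is not stated in the labels. Deviations from the group means had a mean correlation of 0.1342 over 96 pairs of samples with the same number and age (55 above 0.1, lowest −0.2594) and of −0.04302 over 300 pairs with other numbers (59 above 0.1). With the replicate block, 1 member, Pex5l, was called for the layer difference at P23/P45 against P2/P9 (0 without the block). Over all genes that test called 1375 genes with the block and 1101 without it. For regions, 6 pairs of member and age were called (3 without the block), the added ones being Pex5l at P2 and P9 and Hcn4 at P23. Pex5l between layers at P2 was also called, and the block changed no other call of a member in a fit with all samples. Over all genes, the layer difference between regions was called for 155 genes, for 287 with the block, for 338 without the 5 libraries, and for 63 to 217 leaving out 1 replicate number. The share of these calls that were higher was 75.48%, and 65.18% with DESeq2 (224 genes).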
